A study of Mus musculus with 6 samples.

Results

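The acid and bicarbonate transport genes of enamel maturation were followed in dental epithelial organoids (DEOs). The 9 genes are Car2, Car6, Car12, Slc4a2, Slc4a4, Cftr, Slc26a1, Slc26a6 and Slc26a7, taken by gene symbol from a table of 47360 symbols. All 9 were found, each as 1 entry. DEOs were grown for 14 days in Matrigel from adult dental epithelial stem cells of the apical incisor buds of wild-type, 9-week-old female C57BL/6J mice. All media held N-acetylcysteine, the ROCK inhibitor Y27632, Wnt3a- and R-spondin1-conditioned medium, EGF at 100 µg per ml and Noggin, an antagonist of BMP ligands, at 200 µg per ml. The medium with these factors alone is +N. The +ND medium also held dibenzazepine (DBZ), which blocks Notch receptor cleavage, the +NF medium held FGF10 at 100 µg per ml, and +NFD held both. The DBZ dose is 10 µM in the sample labels, while the methods text gives the same figure in mM. RNA of whole organoids was sequenced in 1 library per medium, so differences between media cannot be set against a replicate spread, and none was tested. The labels do not say how many mice or passages a library stands for, and they name no mesenchyme in the cultures. The 2 media with Jagged1 were not analysed here.

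As enamel hardens, the growth of hydroxylapatite crystals releases protons, which maturation ameloblasts neutralise with bicarbonate. In the usual model, carbonic anhydrases form bicarbonate inside and outside the cell, Slc4a4 brings it in across the basolateral membrane, Slc4a2 exchanges it for chloride, and Slc26 exchangers together with the chloride channel Cftr move anions at the apical side. Secretory-stage ameloblasts, which lay down the enamel matrix, come before this stage.

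Values are FPKM as deposited, that is fragments scaled to transcript length and to library size, so levels of different genes are compared per length. The ratio of a pair of media is the difference of their log2(FPKM + 1) values, a scale on which changes of weakly expressed genes look smaller, and a gene counts as changed at 2-fold if its higher library has an FPKM of at least 1. Over all genes passing this filter the median log2 ratio against +N was 0.10 for +ND, 0.12 for +NF and 0.18 for +NFD, and for +NFD it was 0.048 against +NF and 0.094 against +ND, so smaller shifts of a member lie within the shift of the whole table. Depth relative to +N, read from the smallest steps between low values, was 0.804 in +ND, 1.05 in +NF and 1.06 in +NFD. Fragment numbers below come from these steps and from the longest coding transcript of each gene, and their exact Poisson 95% intervals cover counting error only.

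Of 6 markers of maturation ameloblasts, the protease gene Klk4 had 0.0346 FPKM in +ND, with a listed value of 0 elsewhere, and the calcium exchanger gene Slc24a4 stayed at or under 0.302 FPKM in all 4 libraries. Wdr72, needed for vesicle turnover at this stage, was at 3.86 FPKM in +N and 2.36 in +NF, against 0.0630 in +ND and 0.690 in +NFD. The defining protease of maturation was therefore absent or near 0 in every medium, and the 9 genes are described here as transport genes of these organoids and not as markers of mature ameloblasts. Of 6 markers of dental and basal epithelium, including Krt5 and Krt14, all 6 exceeded 1 FPKM in every library.

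The promoters of the members were searched for the core letters bound by RBPJ, the DNA-binding partner of Notch, because DBZ acts on Notch. The windows are the 250 bases before RefSeq starts on GRCm38.p6, and 7 of the 9 members, with 10 windows, had an entry; Car2 and Slc26a7 had none. TGGGAA on either strand was present in 3 of the 10 windows, against 21.6% of 32851 windows of all genes. These 3 windows overlap exons that GENCODE annotates for the same genes. The 30 bases around each match are shown 5′ to 3′ on the strand of the gene, with the match in capitals; TTCCCA is the same core on the opposite strand. They lie at chr4:150201335-150201364 on the minus strand for Car6, the match 217 bases before a RefSeq start. For Slc4a4 the place is chr5:88887120-88887149 on the plus strand, 128 bases before a RefSeq start. For Slc26a1 it is chr5:108675421-108675450 on the minus strand, 73 bases before a RefSeq start. Those of Slc4a4 and Slc26a1 lie inside the gene spans given below, which begin at other positions than these RefSeq starts.
Car6: cactgaactgagTTCCCAaagatgttgaac
Slc4a4: ggccgcgccaacTTCCCAgcccacgccgcc
Slc26a1: cattcatttgacTGGGAAaacccatgactc
The window of Car12, the most abundant member, holds neither this core nor the AP-1 letters TGANTCA, the ETS letters CCGGAAG or TATAAA, which 6.75%, 6.91% and 12.4% of all windows hold. It is shown in full as chr9:66713436-66713685 on the plus strand and overlaps no annotated exon.
Car12: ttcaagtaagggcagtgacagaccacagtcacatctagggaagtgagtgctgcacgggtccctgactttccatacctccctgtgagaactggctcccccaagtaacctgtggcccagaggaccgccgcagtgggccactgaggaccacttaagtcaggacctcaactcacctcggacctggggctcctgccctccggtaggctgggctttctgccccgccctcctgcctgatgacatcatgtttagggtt
These matches describe letters and do not show binding.

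The carbonic anhydrase genes differed between the media, each in its own way. Car2, on chromosome 3 of GRCm38 from 14886273 to 14900770, encodes the fast cytosolic enzyme. Its level was 10.35 FPKM in +N and 6.24 in +NF, against 1.49 in +ND and 2.56 in +NFD. Both media with DBZ were below both media without it, and FGF10 went with a lower level without DBZ and a higher one with DBZ. The log2 ratio to +N was -2.19 for +ND, -0.65 for +NF and -1.67 for +NFD, and between +NFD and +NF it was -1.02. About 508 fragments stood behind the value in +N and 59 behind that in +ND, with intervals of 9.46 to 11.3 and 1.14 to 1.93 FPKM. Without a pseudocount the log2 ratio in +ND was -2.80.

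Of the markers of secretory gland cells, Scgb1a1 and Ltf had the same order of the DBZ and DBZ-free media as Car2. Summed over a list of 8 serous gland and airway genes, of which Bpifa1, Bpifa2 and Dcpp1 were at 0 throughout, FPKM was 428.5 in +N and 253.6 in +NF, against 8.24 in +ND and 10.9 in +NFD. Both genes made up most of the sum in each library. Aqp5 did not follow this order, at 0.991 FPKM in +N and 2.31 in +NF, against 1.93 in +ND and 1.04 in +NFD, and Lpo and Muc5b stayed under 0.15 FPKM. Of the other cells known for Car2, osteoclasts and macrophages had a summed level between 49.0 FPKM in +NF and 76.7 in +N over 6 markers, among which the osteoclast gene Acp5 was highest in +N at 37.9 FPKM and lowest in +NFD at 11.85. Other genes of that list went the other way, with Ctsk highest in +NFD at 5.77 FPKM against 2.235 in +N, and Cd68 and Adgre1 higher in both media with DBZ. Summed erythroid markers stayed at or under 0.301 FPKM, with Hbb-bs and Slc4a1 at 0. The part of these markers in the Car2 result was not tested, and in RNA of whole organoids fewer cells of a type and less RNA per cell cannot be told apart.

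Car12, on chromosome 9 from 66713686 to 66766845, encodes a membrane-bound enzyme with its active site outside the cell. It was by far the highest of the 9 members in every library, at 119.3 FPKM in +N and 123.8 in +NF, against 205.9 in +ND and 129.3 in +NFD. The value in +ND stood above the other 3, which lay between 119.3 and 129.3. Its log2 ratio was 0.78 in +ND relative to +N, short of 2-fold, and 0.063 in +NFD relative to +NF.

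Car6, on chromosome 4 from 150187015 to 150201332 on the minus strand, encodes the secreted enzyme found in saliva and milk. With DBZ its level was 0.770 FPKM without FGF10 and 0.5435 with FGF10. Without DBZ it was at 0.0471 FPKM in +N and listed at 0 in +NF, where 3 fragments correspond to 0.0666 FPKM. The 2 libraries with DBZ held about 27 and 25 fragments, and the 2 without it about 2 and 0. The interval of +ND, from 0.514 to 1.14 FPKM, and that of +NFD, from 0.355 to 0.810, lay above the upper bounds of 0.168 in +N and 0.0819 in +NF. Car6 never reached 1 FPKM and so was not counted as changed. Suprabasal keratinocyte markers had the same order of media in their sum, with a summed FPKM over 6 genes, none at 0, of 129.0 in +N and 20.6 in +NF, against 614.8 in +ND and 286.1 in +NFD. Of the 6, Krt1, Flg and Cdsn had this order singly, while Lor was slightly higher in +NF than in +N, Ivl was lowest in +NFD, and Krt10 was highest in +N at 94.1 FPKM against 32.8 in +ND. Their part in the Car6 values was not tested.

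**Figure D1:**
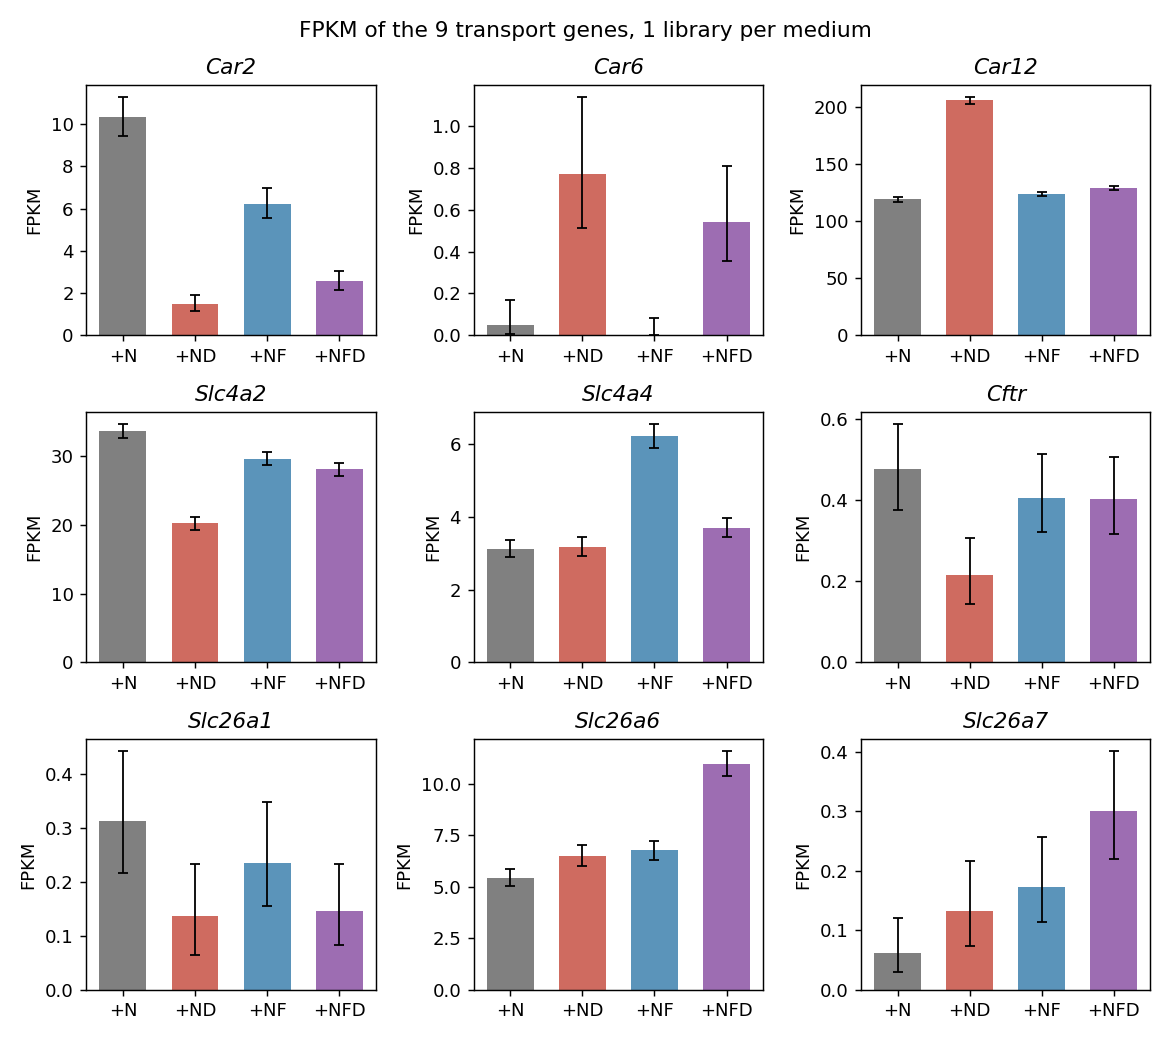
FPKM (linear axis from 0) of each of the 9 members in +N, +ND, +NF and +NFD, 1 library per bar; lines are exact Poisson 95% intervals from estimated fragment numbers and cover counting error only. Car2 is lowest in +ND at 1.49 FPKM, Car6 is above 0.3 FPKM only in the 2 media with DBZ, and Slc26a6 and Slc26a7 are highest in +NFD.

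The bicarbonate transporters of the basolateral side differed less between media than Car2. Slc4a4, on chromosome 5 from 88886818 to 89239653, encodes the sodium bicarbonate cotransporter NBCe1. It was at 3.12 FPKM in +N and 6.23 in +NF, against 3.18 in +ND and 3.71 in +NFD. The +NF library stood apart from the other 3, whose counting intervals all lay between 2.89 and 3.97 FPKM against 5.91 to 6.56 in +NF. The log2 ratio was 0.81 in +NF relative to +N and -0.62 in +NFD relative to +NF, neither of them 2-fold on this scale. Without a pseudocount the log2 ratio in +NF relative to +N was 0.997, only just short of the limit.

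Slc4a2, on chromosome 5 from 24423837 to 24440950, encodes the anion exchanger AE2 and was the second most abundant member. It was at 33.7 FPKM in +N and 29.6 in +NF, against 20.2 in +ND and 28.2 in +NFD, lowest in +ND and between 28.2 and 33.7 elsewhere. The log2 ratio in +ND was -0.71. Its end overlaps Fastk on the opposite strand from 24438440 to 24440950, and Fastk was between 47.7 and 64.5 FPKM. The strand setting of the counting is not given in the sources used here, so fragments of this stretch cannot be assigned with certainty.

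Among the apical transport genes, Slc26a6 was the only one above 1 FPKM. Slc26a6, on chromosome 9 from 108853283 to 108913049, encodes a chloride, bicarbonate and oxalate exchanger. It was at 5.43 FPKM in +N and 6.78 in +NF, against 6.505 in +ND and 10.96 in +NFD. The +ND and +NF values, with overlapping intervals, both exceeded +N by a small margin, and +NFD stood above all 3. Its log2 ratio in +NFD was 0.90 against +N, 0.62 against +NF and 0.67 against +ND. The ratio to +N lay at the limit: FPKM was 2.02 times that in +N, and the log2 ratio became 1.00 with a pseudocount of 0.1. Fibroblast markers were also highest in +NFD, with a summed FPKM over 6 genes, none at 0, of 151.4 in +N and 93.3 in +NF, against 124.8 in +ND and 359.8 in +NFD; their part in the Slc26a6 value was not tested. Secretory ameloblast markers summed to 351.8 FPKM in +NFD and to at most 0.609 in the other libraries, and their part in the levels of Slc26a6 and Slc26a7 was likewise not tested.

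Slc26a7, on chromosome 4 from 14502430 to 14621805 on the minus strand, encodes an anion exchanger and channel of the same family, and had the same order of media at a far lower level. It was at 0.0622 FPKM in +N and 0.173 in +NF, against 0.132 in +ND and 0.3004 in +NFD. These values stand for about 9 fragments in +N, 15 in +ND, 26 in +NF and as many as 45 in +NFD. The interval of +NFD, from 0.219 to 0.401 FPKM, did not overlap that of +N, which ended well below it, while neighbours in this order overlapped.

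Cftr, the cystic fibrosis chloride channel gene, lies on chromosome 6 from 18170687 to 18322768. It was at 0.476 FPKM in +N and 0.407 in +NF, against 0.217 in +ND and 0.403 in +NFD. The +ND library was lowest, with an interval of 0.145 to 0.308 FPKM that lay below those of the other 3, the lowest of which began at 0.317. Ionocytes, airway cells rich in Cftr, were checked with a list of 5 markers. Of these, Foxi1 and Ascl3 reached at most 0.0998 and 0.229 FPKM, and Atp6v1b1 and Atp6v0d2 at most 0.212 and 0.105. Atp6v1c2 was higher, at 8.77 FPKM in +N and 7.635 in +NF, against 8.76 in +ND and 4.86 in +NFD. The part of these markers in the Cftr values was not tested.

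Slc26a1, a sulfate exchanger gene on chromosome 5 from 108669878 to 108675569 on the minus strand, was at 0.314 FPKM in +N and 0.236 in +NF, against 0.137 in +ND and 0.147 in +NFD. These values stand for about 33 fragments in +N, 26 in +NF, 11 in +ND and 16 in +NFD. All 4 counting intervals overlapped, though that of +N, from 0.217 FPKM, only narrowly with those of +ND and +NFD, up to 0.234. Overlap of intervals is not a test of difference, and the order was not tested. The gene lies wholly within Idua, which is on the opposite strand at 4.49 to 6.12 FPKM, so even these few fragments are uncertain.

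**Figure D2:**
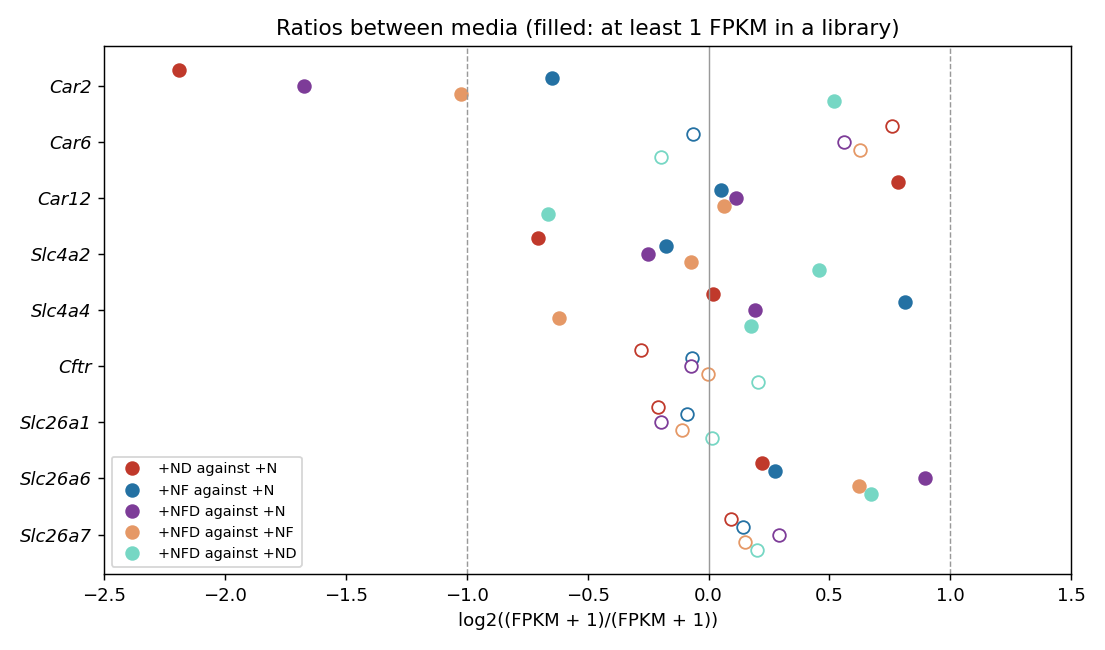
Log2((FPKM + 1)/(FPKM + 1)) of each member (rows) in 5 comparisons between single libraries (colours); open circles are members under 1 FPKM in all libraries, and dashed lines mark 2-fold. Car2 is past the limit in 3 comparisons, with log2 ratios of -2.19, -1.67 and -1.02, and the other 8 members lie inside it in all 5.

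Counted together, 5 members passed the filter in each comparison (Car2, Car12, Slc4a2, Slc4a4 and Slc26a6), and the other 4 did not because of their low level. In +ND relative to +N, 0 of the 5 were at least 2-fold higher and 1, Car2, was lower, against 5.88% and 5.29% of all genes. In +NF relative to +N, 0 were higher and 0 lower, against 2.76% and 2.44%. For +NFD compared with +N the counts were 0 and 1, against 5.85% and 4.03%. For +NFD compared with +NF they were 0 and 1, against 3.72% and 2.69%. For +NFD compared with +ND they were 0 and 0, against 3.39% and 3.11%. The median log2 ratio over the 5 was 0.018, 0.053 and 0.12 in +ND, +NF and +NFD relative to +N, each below the median of all genes. In +NFD it was -0.071 against +NF, where all genes gave 0.048, and 0.46 against +ND, where all genes gave 0.094. In this last comparison 4 of the 5 members were higher. The share of all genes higher in +NFD than in +ND was not counted, so the 4 have no background beside them. The comparisons with +N share that library. In each of the 5 comparisons the members that passed lay on both sides of 0.

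DBZ was added in 2 pairs of libraries with none in common, +ND against +N and +NFD against +NF. For Car2 the log2 ratio was -2.19 without FGF10 and -1.02 with it. For Car12 it was 0.78 and 0.063, and for Slc4a2 -0.71 and -0.071, so the shifts of these genes in +ND had no counterpart of like size when FGF10 was present. For Slc4a4 the larger value was the one with FGF10 present, at 0.018 without FGF10 and -0.62 with it. Slc26a6 was at 0.22 and 0.62. With 1 library per medium, these differences between backgrounds were not tested.

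**Figure D3:**
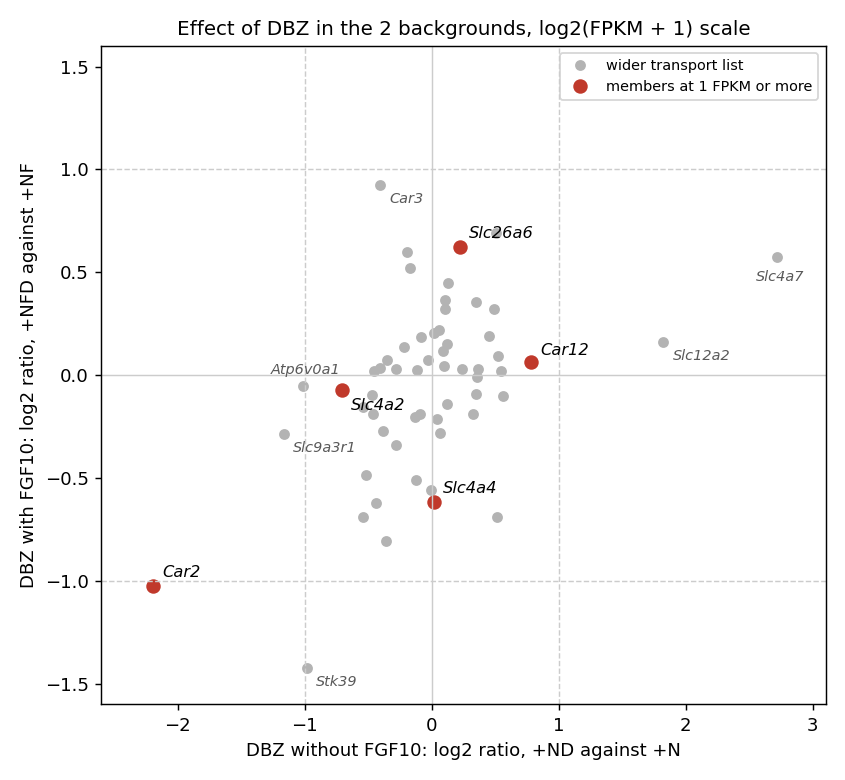
Log2 ratio with DBZ without FGF10 (x axis, +ND against +N) and with FGF10 (y axis, +NFD against +NF) for the 5 members at 1 FPKM or more (red) and the wider transport list (grey), each point 1 gene. Car2 is past 2-fold on both axes at -2.19 and -1.02, while Slc4a7 and Slc12a2 are past it only on the x axis, at 2.72 and 1.82.

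A wider list of 81 genes, of which 80 were in the table, held the other carbonic anhydrases, Slc4 and Slc26 members, sodium/proton exchangers, subunits of the proton-pumping V-ATPase, chloride channels, and regulators and pH sensors. In +ND relative to +N, 2 of the 51 that passed the filter exceeded 2-fold upwards and 2 downwards, 3.92% each, against 5.88% and 5.29% of all genes. In +NF relative to +N, 1 of 51 was higher and 0 were lower, against 2.76% and 2.44%. For +NFD, 1 of 52 was higher than in +N and 2 were lower, against 5.85% and 4.03%. Set against +NF, 0 of 53 were higher and 1 was lower in +NFD, where all genes gave 3.72% and 2.69%. Set against +ND, 3 of 53 were higher and 2 lower, where all genes gave 3.39% and 3.11%. By the rule for named genes, Slc4a11 and Stk39 were singled out, and the other genes of the wider list named below were chosen after their values were seen.

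The largest differences of the list were in the Slc4 family. Slc4a7, which encodes the electroneutral sodium bicarbonate cotransporter NBCn1, was at 10.4 FPKM in +N and 8.51 in +NF, against 74.3 in +ND and 13.15 in +NFD, so that +ND stood far above the other 3. The log2 ratio was 2.72 between +ND and +N, and -2.41 between +NFD and +ND. Slc4a11, a membrane transporter gene of the same family, was at 10.9 FPKM in +N and 43.1 in +NF, against 16.1 in +ND and 26.3 in +NFD. The 2 media with FGF10 were above the 2 without it, with log2 ratios to +N of 1.89 for +NF and 1.19 for +NFD. Slc4a3, an anion exchanger gene, was likewise higher with FGF10, at 11.4 FPKM in +NF and 10.1 in +NFD against 5.86 in +N and 3.72 in +ND. Its log2 ratio was 1.24 in +NFD relative to +ND and 0.85 in +NF relative to +N.

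Slc12a2, which encodes the sodium, potassium and chloride cotransporter NKCC1, showed the same single high library as Slc4a7, at 21.6 FPKM in +ND against 5.37 in +N, 6.05 in +NF and 6.87 in +NFD. Stk39, which encodes SPAK, a kinase that regulates such cotransporters, was lower in both media with DBZ. It was at 14.5 FPKM in +N and 17.6 in +NF, against 6.84 in +ND and 5.93 in +NFD, and the log2 ratio for DBZ was -0.98 without FGF10 and -1.42 with it; between +NFD and +N it was -1.17. Slc9a3r1, which encodes the scaffold NHERF1 that binds Cftr, was at 118.3 FPKM in +ND and between 224.4 and 273.6 in the other 3 libraries.

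**Figure D4:**
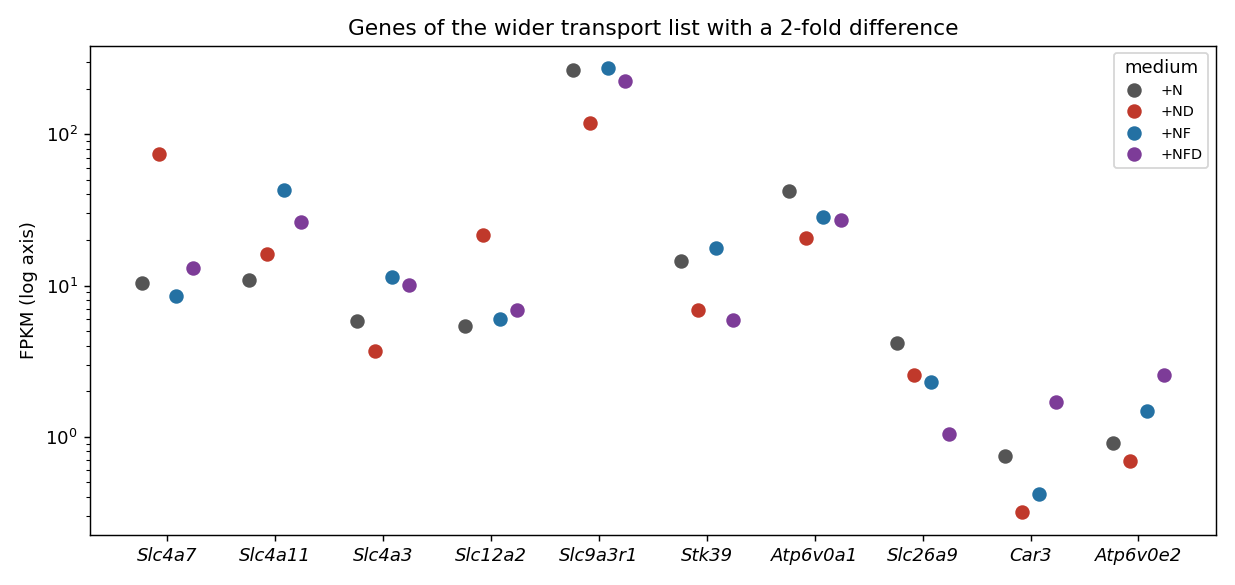
FPKM (log axis) in the 4 libraries of the 10 genes of the wider transport list that differed at least 2-fold in any of the 5 comparisons. Slc4a7 at 74.3 and Slc12a2 at 21.6 FPKM are highest in +ND, Slc4a11 is higher in both media with FGF10, and Stk39 is lower in both media with DBZ.

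Of 12 other carbonic anhydrase genes in the table, 5 passed the filter in each comparison with +N and 0 of these were at least 2-fold different. Of all genes, 5.88% were higher and 5.29% lower in +ND, 2.76% and 2.44% in +NF, and 5.85% and 4.03% in +NFD. Without a pseudocount, FPKM in +NFD was 2.27 times that in +N for Car3 and 0.413 times for Car9. Car13, a cytosolic form, was the highest of the 12 at 64.5 FPKM in +N and 71.2 in +NF, against 59.0 in +ND and 49.75 in +NFD. It exceeded Car2 in every library. Car3 was at 1.69 FPKM in +NFD and 0.316 in +ND, a log2 ratio of 1.03. Of the other Slc26 genes, Slc26a9 was lower in +NFD, at 1.04 FPKM against 4.18 in +N. The pendrin gene Slc26a4, which is also linked to maturation ameloblasts, varied only between 0.804 and 0.886 FPKM.

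The V-ATPase acidifies compartments by pumping protons. Of 25 subunit genes, 20 passed the filter in +NFD relative to +N, and 0 of them were 2-fold different, against 5.85% higher and 4.03% lower of all genes. Of these 20, 17 lay below +N, and the median log2 ratio over the 20 was -0.12, where all genes passing the filter gave 0.18. The share of all genes below +N was not counted, so the 17 have no background beside them. In +ND, 1 of 19 was lower, or 5.26% against 5.29% of all genes. It was Atp6v0a1, at 20.5 FPKM against 42.4 in +N, which is just past the limit with a log2 ratio of -1.01. In +NFD relative to +ND, Atp6v0e2 was higher, at 2.55 against 0.697 FPKM. Of 9 sodium/proton exchanger genes, at most 5 passed the filter in a comparison and 0 were 2-fold different. The share of all genes past the limit was 2.44% to 5.88% per direction over the 5 comparisons. Without a pseudocount, FPKM of Slc9a9 in +NFD was 2.54 times that in +NF, at 1.69 against 0.666.

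Car2 had the widest range of the 9 members over the 4 libraries, and the genes with the most similar pattern were sought among 10466 others that reached 5 FPKM, by the distance between centred log2(FPKM + 1) values. The 5 nearest were Jag1, Socs2, Mpped2, Engase and Traf1, at distances of 0.075 to 0.158. Jag1, which encodes a Notch ligand, was nearest at 66.4 FPKM in +N and 44.4 in +NF, against 14.0 in +ND and 21.5 in +NFD. Only 4 libraries enter this ranking, and it describes likeness in level alone.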

How the data were processed

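The members and gene lists were chosen with earlier results of these data known. Per the labels and the study's methods, TruSeq libraries were sequenced on a HiSeq sequencer, reads were checked with FastQC 0.11.9 and trimmed with Trim Galore 0.6.5, and alignment to GRCm38 used TopHat 2.1.1. The authors estimated abundance with Cufflinks and deposited FPKM, with 1 library per medium. The annotation release and strand setting are not given in the sources used here. FPKM depends on transcript length and library size, so a few abundant transcripts lower all other values.

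From the deposited FPKM, entries of the same symbol were summed (123 symbols) and log2((FPKM + 1)/(FPKM + 1)) was computed for 5 pairs of libraries. A difference counted at 2-fold where the higher library had an FPKM of at least 1. No test was made. Depth was read from 8367 genes with 1 annotated transcript of at least 1000 nt in GENCODE M21 (GRCm38): FPKM times length forms a lowest cluster worth 1 fragment, at 0.0364 in +N, 0.0348 in +NF and 0.0344 in +NFD, against 0.0453 in +ND, with quartiles of 0.0328 to 0.0404 in +N. Fragment numbers are therefore approximate. All 9 members had the same positions in GENCODE.

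The rule for naming genes took all members, genes of the wider list at least 2-fold different in +NFD relative to +N with an FPKM of at least 5 (at most 3 per direction and group), marker genes used to check cell types, and the 5 genes most like the member with the widest range. Alternatives were a pseudocount of 0.1 or none, no filter, a filter at 5 FPKM, upper-quartile scaling, centred ratios, the highest entry per symbol, and protein-coding genes alone. The computations were tested on simulated data. Tables were handled with pandas 2.3.3 and numpy 2.4.6 in Python 3.11.15, intervals came from scipy 1.17.1, and plots from matplotlib 3.10.9.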

Additional observations from a re-analysis of the deposited data

How the results depend on the processing

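No paired analysis was possible because each medium has 1 library, and no library was left out for the same reason. Of 185 summary values under the alternatives, 13 counts moved by over 1.5 times, and 0 member ratios past 2-fold changed sign. Between +NFD and +N, the count of members past 2-fold upwards went from 0 to 1, Slc26a6, with a pseudocount of 0.1 and with none. The wider list changed more. Between the same libraries, 4 genes were higher in place of 1 with a pseudocount of 0.1 and with none, and 1 was lower in place of 2 with a filter at 5 FPKM. Relative to +NF, a pseudocount of 0.1 or none gave 2 higher and 2 lower in place of 0 and 1. Relative to +ND, 4 were lower in place of 2 with a pseudocount of 0.1 or none, and 1 was higher in place of 3 with a filter at 5 FPKM and with centred ratios. Car2 kept its direction and its side of the 2-fold limit in every alternative that gave it a value. Medians over the members near 0 turned their sign against +N: from 0.018 to -0.24 with a filter at 5 FPKM, -0.044 after scaling to the upper quartile and -0.084 after centring in +ND, from 0.053 to -0.066 without a filter, -0.049 and -0.064 in +NF, and from 0.12 to -0.067 with a filter at 5 FPKM, -0.037 and -0.063 in +NFD, so these medians have no settled direction. The same holds for the small ratios of Slc4a4 in +ND and of Car12 in +NF and +NFD, under both scalings. Depth limits Car6, Cftr, Slc26a1 and Slc26a7, each under 1 FPKM.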
